A study of Mus musculus with 3 samples.

Results

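Mammalian cells build fatty acids from cytosolic citrate. ATP citrate lyase (Acly) splits citrate into acetyl-CoA, acetyl-CoA carboxylase (Acaca) turns acetyl-CoA into malonyl-CoA, and fatty acid synthase (Fasn) joins these units into palmitate. Elongases of the Elovl family then lengthen fatty acids, stearoyl-CoA desaturases (Scd1, Scd2) put a double bond into saturated chains, and the Fads desaturases work on polyunsaturated chains. In fat tissue these enzymes make fatty acids that are stored as triglyceride, and many of their genes are known targets of the lipogenic transcription factors SREBP1c, ChREBP and LXR.

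These 10 genes (Scd1, Scd2, Fads1, Fads2, Fads3, Elovl5, Elovl6, Fasn, Acaca and Acly) were followed through 2 peak lists from mouse beige adipocytes. A peak belonged to a member when the gene name in the authors' annotation, which gives the nearest RefSeq transcription start site (TSS), was that of the member. By this rule the members held 13 of 16937 Foxp4 peaks and 19 of 17564 peaks of H3K27ac. Foxp4 is a forkhead transcription factor, and H3K27ac is acetylation of histone H3 at lysine 27, found at active promoters and enhancers. Chromatin immunoprecipitation with sequencing was carried out on cells of C57BL/6 mice, grown out of the stromal-vascular fraction of inguinal white fat (iWAT) and turned into beige adipocytes in culture. Cells were grown for 3 days with 20% fetal bovine serum (FBS), and induction was with 10% FBS. Induction lasted 48 h with insulin (5 µg/ml), isobutylmethylxanthine (0.5 mM), dexamethasone (1 µM), T3 (50 nM) and troglitazone (5 µM), an agonist of the adipogenic receptor PPARγ. Insulin, T3 and troglitazone were then kept on for 6 days. All 3 libraries, input DNA, Foxp4 and H3K27ac, came from cells treated in this way, so no untreated or Foxp4-deficient group was compared.

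There was 1 library for each target and no replicate, so no test of a difference was possible and all values below describe these libraries. Depth is unknown, because the lists hold no read counts. An absent peak means only that none was called. Each peak carries the authors' score, a whole number of at least 20, which ranks peaks within its own list only. An H3K27ac peak within 1000 bp of the start stood at 5 of 7 general adipocyte markers, 1 of 6 thermogenic, 2 of 6 progenitor, 1 of 5 macrophage, 0 of 4 endothelial and 0 of 4 skeletal muscle markers, where 26.0% of all protein-coding genes had one. Any H3K27ac peak was assigned to 6, 2, 4, 2, 3 and 1 of these markers in the same order (37.5% of all genes), and any Foxp4 peak to 6, 3, 4, 0, 4 and 1 (36.6%). The endothelial and progenitor markers thus also had peaks, and the part of other cell types in the lists was not tested. Among the thermogenic markers Ucp1, Prdm16 and Dio2 had no peak in either list, Cidea had 1 Foxp4 peak, Ppargc1a had 5 Foxp4 and 4 H3K27ac peaks, and Ebf2 had 2 and 6.

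Foxp4 peaks were assigned to 5 of the 10 members: Scd1 had 5, Fads2 and Acaca had 3 each, and Scd2 and Fasn had 1 each. Among 21031 protein-coding genes 36.6% had a Foxp4 peak assigned. H3K27ac peaks were assigned to 7 members, led by Scd1 with 7 and Scd2 with 6. Fads3 had 2, and Fads1, Elovl5, Fasn and Acaca had 1 each, where 37.5% of all genes had any. Elovl6 and Acly had none in either list under this rule. A count of at least 5 Foxp4 peaks was found at 1.76% of genes, and one of at least 6 H3K27ac peaks at 1.63%.

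Peaks centred no more than 1000 bp from the TSS were called promoter peaks. Scd1 and Fads2 had a Foxp4 promoter peak (2 of 10, 20%, exact 95% interval 2.52 to 55.6%), where 6.77% of all genes had one. Scd1, Scd2, Fads3 and Fasn had an H3K27ac promoter peak (4 of 10, 40%, interval 12.2 to 73.8%), where 26.0% of all genes had one. With so few members both intervals are wide and include the share of all genes. This is a description and no test, as the members were chosen with earlier results known and some are neighbours. Scd1 was the only member with both, a state found at 3.70% of genes. Fads2 had Foxp4 alone (3.07% of genes), and Scd2, Fads3 and Fasn had H3K27ac alone (22.3% of genes). Fads1, Elovl5, Elovl6, Acaca and Acly had neither, as did 70.9% of genes. For Acaca this refers to the single start used in the deposited distances, which lay inside its RefSeq span. Most of these promoter peaks lay off the TSS itself, and within 500 bp only the H3K27ac peak of Scd2 was left (0 of 10 members for Foxp4, 4.57% of genes, and 1 of 10 for H3K27ac, 19.3% of genes). Among assigned peaks, those nearest to the edge of the window were at Scd1. Inside it they lay 985 bp upstream for Foxp4 and 994 bp downstream for H3K27ac, and outside it 2141 bp downstream for H3K27ac.

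To show the DNA at the start sites where the marks differed, promoter sequences were taken from RefSeq (GRCm38.p6, the assembly of mm10), running from 250 bp before to 50 bp after the TSS. Entries were found for 7 of the 10 members, all but Scd1, Scd2 and Fads1. The 4 shown are Fads2 (Foxp4 promoter peak, no H3K27ac), its neighbour Fads3 (H3K27ac promoter peak, no Foxp4), Fasn (H3K27ac promoter peak) and Elovl6 (no promoter peak). Capitals mark exact matches, on either strand, to the motifs described after the sequences.
Fads2, chr19:10101454-10101753, minus strand: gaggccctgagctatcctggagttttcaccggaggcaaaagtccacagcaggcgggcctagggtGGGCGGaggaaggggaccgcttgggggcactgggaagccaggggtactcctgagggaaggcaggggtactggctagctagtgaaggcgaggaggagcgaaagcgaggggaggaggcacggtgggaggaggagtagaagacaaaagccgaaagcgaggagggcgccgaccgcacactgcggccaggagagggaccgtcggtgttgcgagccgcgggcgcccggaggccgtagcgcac
Fads3, chr19:10041298-10041597, plus strand: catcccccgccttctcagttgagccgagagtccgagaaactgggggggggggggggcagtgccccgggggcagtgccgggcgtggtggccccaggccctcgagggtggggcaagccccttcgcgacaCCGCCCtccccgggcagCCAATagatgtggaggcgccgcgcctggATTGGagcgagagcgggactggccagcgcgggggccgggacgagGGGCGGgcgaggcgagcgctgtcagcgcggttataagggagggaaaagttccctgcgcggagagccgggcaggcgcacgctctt
Fasn, chr11:120824498-120824797, minus strand: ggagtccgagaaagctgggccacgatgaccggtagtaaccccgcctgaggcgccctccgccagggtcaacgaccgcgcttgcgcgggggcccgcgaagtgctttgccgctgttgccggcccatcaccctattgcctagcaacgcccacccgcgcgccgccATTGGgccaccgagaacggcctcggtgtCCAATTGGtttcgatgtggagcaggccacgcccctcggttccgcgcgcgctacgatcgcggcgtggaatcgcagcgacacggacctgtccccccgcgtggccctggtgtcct
Elovl6, chr3:129532136-129532435, plus strand: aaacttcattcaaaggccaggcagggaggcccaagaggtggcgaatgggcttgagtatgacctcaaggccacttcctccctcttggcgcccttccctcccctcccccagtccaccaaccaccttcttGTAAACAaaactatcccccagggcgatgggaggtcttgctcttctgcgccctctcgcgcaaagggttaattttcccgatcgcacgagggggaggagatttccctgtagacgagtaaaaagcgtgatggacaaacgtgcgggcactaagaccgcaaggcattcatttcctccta

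None of the 7 windows overlapped a peak of either list. The nearest were the H3K27ac peaks of Fads3 and Fasn, at 251 and 621 bp from the window, and the Foxp4 peak of Fads2, at 652 bp. Both strands were searched for the forkhead core TGTTTAC and for its variants with the letters TGTTTGC (5.07% of all windows) or the letters TGTTTAT (4.60%). The search also covered the E-box, written CACGTG, the CCAAT box, the GC box, written GGGCGG, and the SREBP element, written TCACNCCAC. The forkhead core TGTTTAC stood only in Elovl6 among the 7 windows, 123 bp upstream of the TSS on the opposite strand. This letter string occurred in 3.65% of all 32851 promoter windows. The nearest Foxp4 peak to the Elovl6 TSS was 186235 bp away. The Fads2 window, from the gene with the Foxp4 promoter peak, held 1 GC box at 186 bp upstream and none of the forkhead cores. A GC box was found in 35.7% of all windows and a CCAAT box in 37.4%. Fasn had 3 matches to CCAAT, at 90, 62 and 59 bp upstream, the last pair overlapping on opposite strands. Fads3 had 2 CCAAT matches and 2 GC boxes. The E-box (7.15% of all windows) stood in Elovl5 alone, and the SREBP letters (1.24%) in none of the 7. The Acaca window held no match at all, with 39.7% G and C and 1 CpG. The other 6 windows had 14 to 39 CpGs, and the median over all windows was 7. That Acaca window lay at the single start used in the deposited distances, inside the RefSeq span, so any other start of Acaca was not searched.

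Scd1 had the highest-scoring Foxp4 promoter peak of the 10 genes. Scd1 is the main stearoyl-CoA desaturase of adipose tissue and makes oleate and palmitoleate. Its Foxp4 promoter peak spanned chromosome 19, 44408182 to 44409206, centred 985 bp upstream of the start and its near edge at 473 bp. The score was 57, and 1.58% of the Foxp4 list scored at least as high. At 1025 bp the peak was also wide: 0.443% of the list was at least as wide, and the list median was 354 bp. It shared 585 bp with an H3K27ac peak of 632 bp (44408135 to 44408766). That H3K27ac peak was weak within its list, with a score of 22 that 98.5% of peaks reached. A higher H3K27ac peak, of score 37, lay on the other side of the start in exon 2 (44406385 to 44407045), and the 1089 bp between the pair contained the TSS. Further H3K27ac peaks of scores 36 and 34 followed in intron 2, at 2141 and 3536 bp downstream.

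The region beyond the 3′ end of Scd1 carried the other Foxp4 peak that lay in acetylated chromatin. This Foxp4 peak (44388825 to 44389343, score 53, reached by 2.04% of the list) was centred 18625 bp downstream of the TSS, in intergenic sequence. All 519 bp of it lay inside an H3K27ac peak of 1359 bp (44388227 to 44389585), whose score of 57 was the highest H3K27ac score assigned to Scd1. Another H3K27ac peak of score 25 stood 860 bp from the Foxp4 peak. Upstream of Scd1, a Foxp4 peak of score 49 (44448004 to 44448445) lay 40515 bp from the TSS. An H3K27ac peak that also scored 49 ended 944 bp from it without overlap. The remaining pair of Foxp4 peaks, at 22786 and 30246 bp upstream, both had the low score of 21, and the nearest H3K27ac peak was 16024 and 8504 bp away. At Scd1 the Foxp4 peaks with scores of 49 or more lay in or within 1000 bp of acetylated sequence, and the pair of score 21 did not. In the whole list 12.9% of Foxp4 peaks lay that near. A relation of score to acetylation was not tested on these few peaks of a single locus.

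Scd2, the stearoyl-CoA desaturase related to Scd1, was acetylated at its start but had no Foxp4 peak there. Its H3K27ac promoter peak (44293136 to 44293797, score 54) covered the TSS, the only such case among the members. The Foxp4 peak of Scd2 (44284067 to 44284484, score 32) lay 9401 bp upstream in a sequence annotated as a CpG island. It stood between a pair of H3K27ac peaks 379 bp apart, with scores of 48 and 58. It shared 145 bp with the former (44283655 to 44284211) and ended 106 bp before the latter (44284591 to 44284915). H3K27ac peaks of scores 50 and 40 lay farther upstream, at 28137 and 44509 bp, and 1 of score 29 lay in intron 2. A further pair of overlapping peaks sat at the 3′ end of Scd2 but was assigned to Mir5114, a microRNA gene inside it. There a Foxp4 peak of score 41 (44306663 to 44307129) shared 176 bp with an H3K27ac peak of score 32 in the 3′ UTR (44306111 to 44306838).

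**Figure D1:**
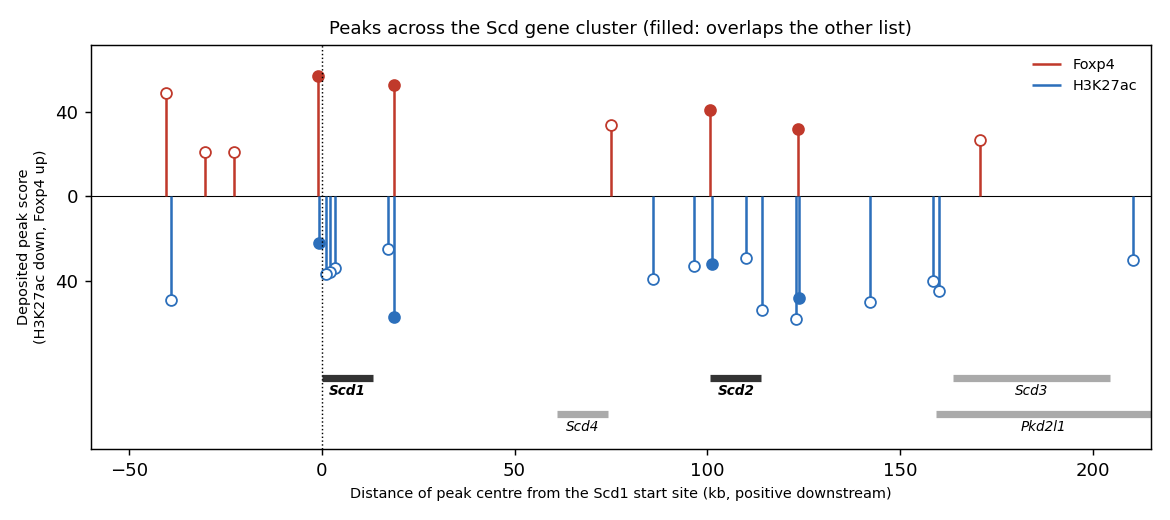
Score of each Foxp4 peak (up) and H3K27ac peak (down) against the distance of its centre from the Scd1 start site in kb, positive in the direction of Scd1 transcription, with bars for RefSeq protein-coding genes. Filled circles are peaks that overlap the other list, and they fall at 4 places: 2 at Scd1 (Foxp4 scores 57 and 53) and 1 on each side of Scd2 (32 and 41).

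The Scd genes lie next to each other, and the cluster held more peaks of both lists per 100 kb than chromosome 19 as a whole. From 50000 bp before the first to 50000 bp after the last of Scd1 to Scd4 (304 kb), there were 9 Foxp4 and 18 H3K27ac peaks. This came to 2.96 Foxp4 peaks per 100 kb, against 0.856 over chromosome 19, and to 5.91 H3K27ac peaks per 100 kb, against 1.07. The chromosome values average over genes and the sequence between them, and no windows matched for gene content were compared. The Fads window described below also exceeded them for both lists (2.34 and 1.56). Of the 9 Foxp4 peaks, 4 overlapped H3K27ac, where 8.21% of the whole Foxp4 list did. At Scd4 a Foxp4 promoter peak scored 34, with its centre 718 bp before the start, and did not overlap. Scd3 had 1 Foxp4 peak of score 27, at 33554 bp from the TSS. The Scd genes are similar in sequence, and how reads that match several places were treated is not given in the sources used here.

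No peak of the Fads genes overlapped the other list, which was also so for most peaks of either list (8.21% of Foxp4 and 7.91% of H3K27ac peaks overlapped). Fads2, the desaturase that starts the synthesis of long polyunsaturated fatty acids, had 3 Foxp4 peaks and no H3K27ac peak. The highest was a promoter peak in intron 1 (chromosome 19, 10100493 to 10100802), 856 bp downstream of the TSS. Its score of 47 was reached by 5.34% of the list. The other Fads2 peaks scored 35, at 35705 bp upstream (10137020 to 10137396), and 27, in intron 5 (10076755 to 10077740), and both were annotated to LTR retrotransposons. The intron 5 peak was 986 bp wide, a width reached by 0.555% of the list. The nearest H3K27ac peak to the Fads2 TSS was 39105 bp away.

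Fads3, a desaturase with a role in sphingoid bases, and Fads1, the desaturase that yields arachidonate, carried H3K27ac peaks but none of Foxp4. The Fads3 promoter peak in intron 1 (10041848 to 10042969) was 1122 bp wide and centred 860 bp downstream of the TSS. Its score was 52, which 29.6% of the H3K27ac list reached. A peak of score 28 (10062038 to 10062398) was assigned to Fads3 at 20670 bp from its TSS, but lay beyond its 3′ end and 366 bp from the 3′ end of Fads2. Fads1 had 1 H3K27ac peak of score 34, at 17711 bp upstream in a B2 SINE. The nearest Foxp4 peak to the Fads1 TSS, 20728 bp away, belonged to the promoter of Fen1, which encodes a flap endonuclease of DNA replication. Across the cluster with 50000 bp on each side (256 kb) there were 6 Foxp4 and 4 H3K27ac peaks, and 0 of them overlapped. With overlap at 8.21% of all Foxp4 and 7.91% of all H3K27ac peaks, none among so few is no result about these genes. The Foxp4 density was 2.34 per 100 kb and the H3K27ac density 1.56, against the same chromosome values of 0.856 and 1.07.

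**Figure D2:**
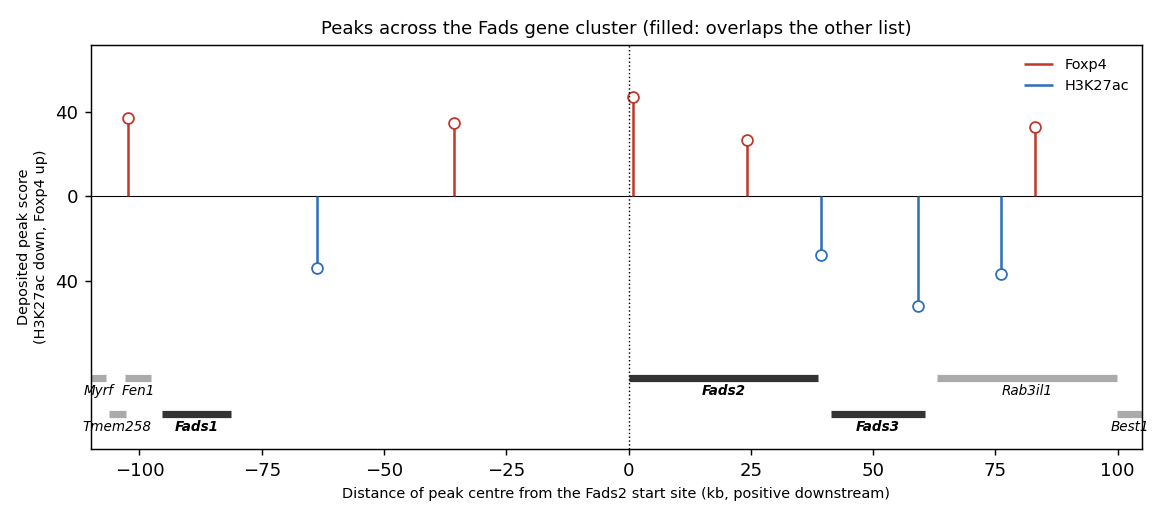
Foxp4 (up) and H3K27ac (down) peak scores against distance from the Fads2 start site in kb, positive in the direction of Fads2 transcription, with gene bars below. All circles are open, since none of the peaks shown overlaps the other list (8.21% of all Foxp4 and 7.91% of all H3K27ac peaks do), and the Fads2 promoter peak of score 47 stands alone at that start, with the nearest acetylated peak 39105 bp from the start site.

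Neither elongase gene among the members, Elovl6 or Elovl5, had a Foxp4 peak or an H3K27ac promoter peak, and both had H3K27ac farther from the start. Elovl6, which extends palmitate to stearate, had no peak assigned, yet a pair of H3K27ac peaks lay in its intron 2. They scored 74 (chromosome 3, 129534066 to 129534576) and 65 (129535691 to 129536276) and were centred 1935 and 3597 bp downstream of the Elovl6 TSS. The annotation gave them to Gm35986, whose TSS lay only slightly nearer, at 1933 and 3595 bp from the same centres. Both starts thus lie almost at the same place, and this small margin alone left Elovl6 without an assigned peak. These scores, reached by 12.1% and 17.2% of the list, exceeded every H3K27ac score assigned to a member, the highest of which was 59. Elovl5, an elongase of polyunsaturated fatty acids, held that score of 59 in an intergenic peak 6122 bp upstream of the TSS (chromosome 9, 77911023 to 77911463). The nearest Foxp4 peak to the Elovl5 TSS lay 134687 bp away.

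At the palmitate-making enzymes Fasn and Acaca, the assigned H3K27ac peaks (31 and 22) scored under their list's median of 40. The Foxp4 peak in Acaca exon 21 scored 34. The other Foxp4 peaks there scored 27, their list's median, which 74.7% of that list reached. Fasn had 1 H3K27ac peak in intron 1, in a CpG island 885 bp downstream of the TSS (chromosome 11, 120823448 to 120823877), with a score of 31 that 76.1% of the list reached. Its Foxp4 peak of score 27 (120870537 to 120870823) lay 46133 bp upstream, inside intron 15 of the neighbouring gene Ccdc57. Acaca had 3 Foxp4 peaks, in intron 2 (27), intron 16 (27) and exon 21 (34), between 20278 and 67882 bp downstream of the annotated TSS. Its assigned H3K27ac peak in intron 1 had a score of 22, and no Foxp4 peak of Acaca overlapped H3K27ac.

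Acaca is transcribed from several promoters, and the deposited distances use a single start. The RefSeq span of the gene (84129635 to 84401651) begins far upstream of that start. An H3K27ac peak of score 86 (84179947 to 84180960) lay within the span, 14985 bp upstream of the annotated start, and was assigned to Gm11437. Only 7.42% of the list reached that score. Another pair of Foxp4 peaks inside the span, of scores 41 and 34, was assigned to Tada2a, the neighbour on the upstream side. Acly had no peak of either list inside its span. Its nearest Foxp4 peak lay 18282 bp from the TSS in Ttc25, and the nearest H3K27ac peak 94997 bp away at Nkiras2.

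**Figure D3:**
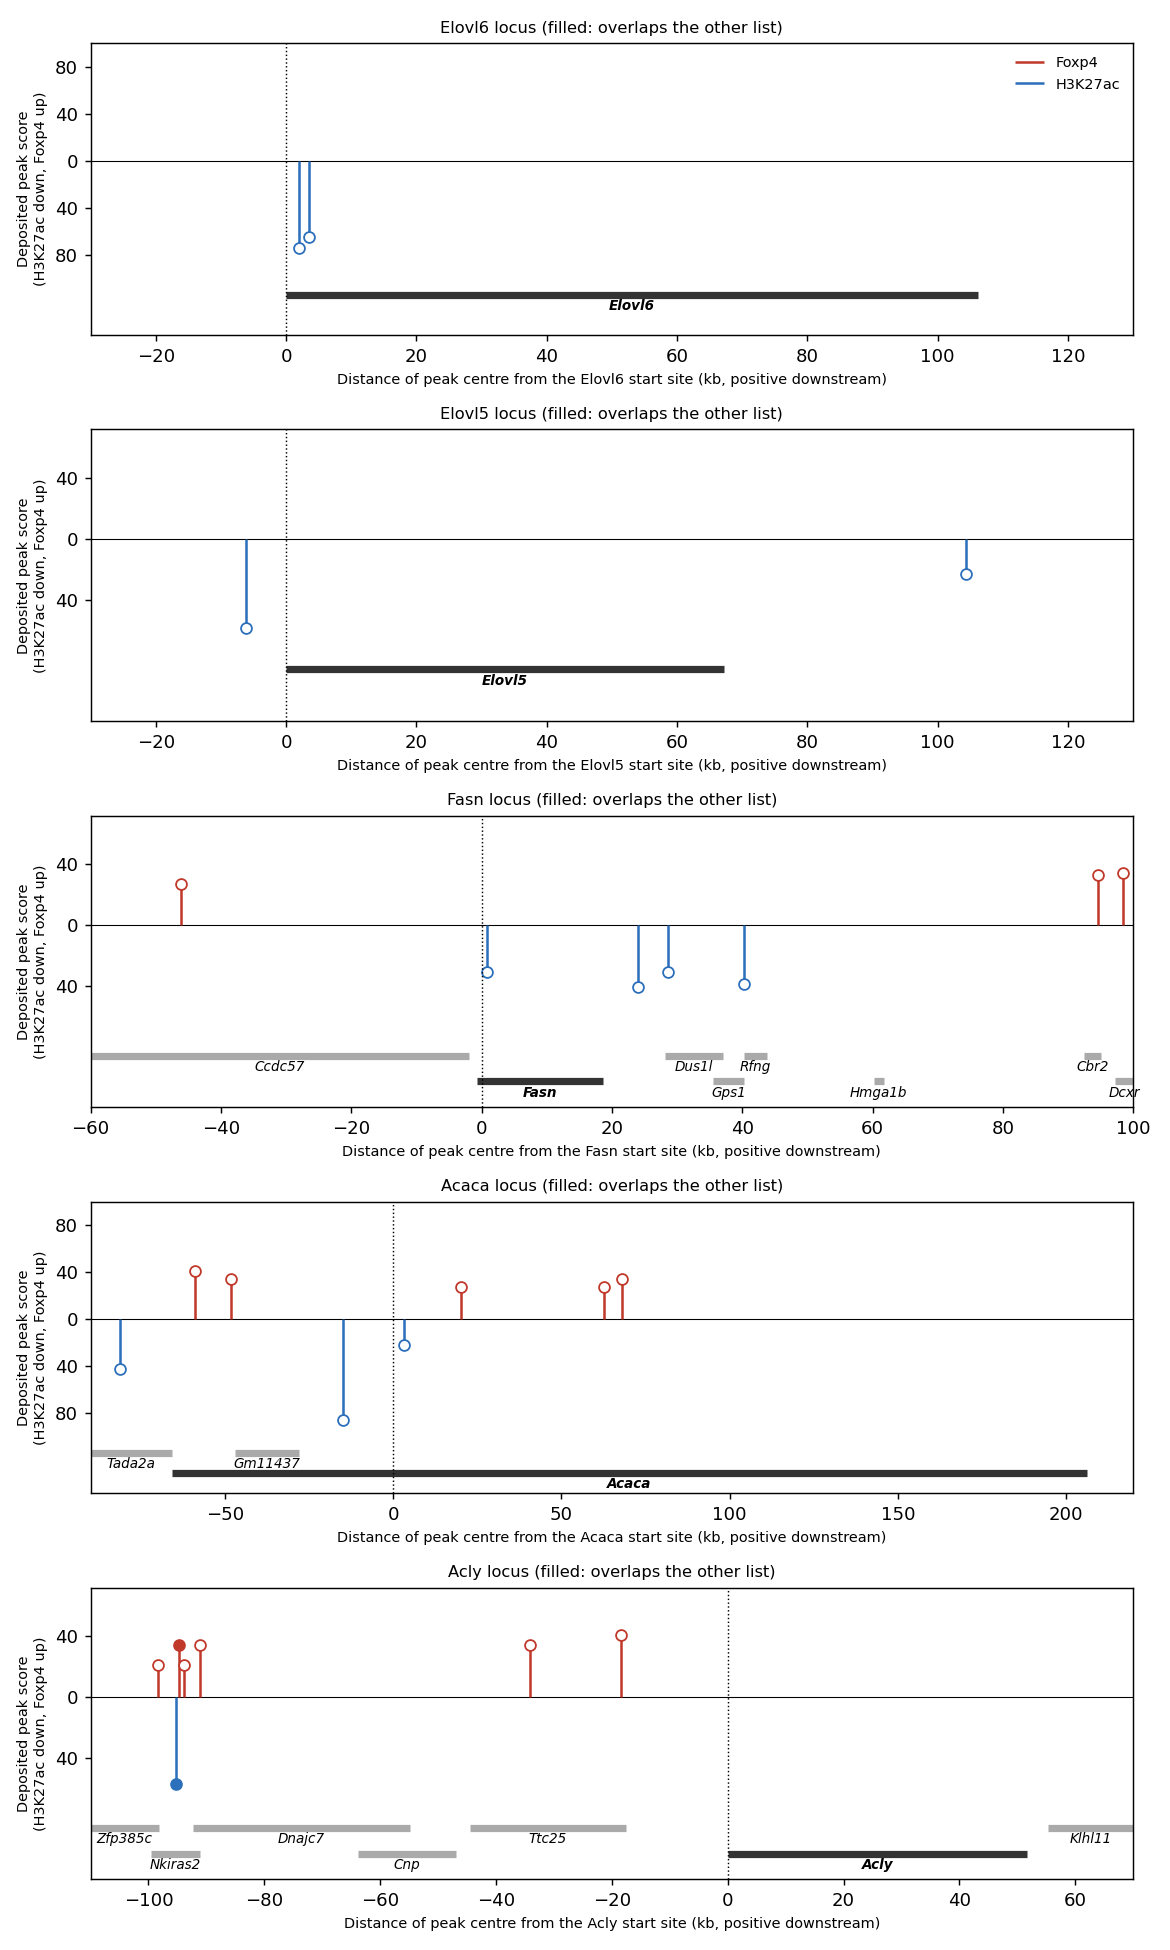
Peak scores at Elovl6, Elovl5, Fasn, Acaca and Acly, each against distance from the gene's own start site in kb, Foxp4 up and H3K27ac down, with RefSeq protein-coding genes as bars. The H3K27ac peaks of 74 and 65 in Elovl6 and of 86 in Acaca lie inside the gene bars, though the deposited annotation names other genes for them.

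By position in place of the annotated name, 6 members had an H3K27ac peak inside their RefSeq span (34.9% of all genes) and 3 had a Foxp4 peak there (26.0%). The 6 were Scd1, Scd2, Fads3, Elovl6, Fasn and Acaca, and the 3 were Scd2, Fads2 and Acaca. With peaks taken by either rule, 8 members had H3K27ac (41.3% of all genes) and 5 had Foxp4 (40.8%). Of the member peaks, 3 of 13 Foxp4 peaks overlapped H3K27ac (23.1%, exact 95% interval 5.04 to 53.8%), where 8.21% of the list did. In the other direction 3 of 19 H3K27ac peaks overlapped Foxp4 (15.8%, interval 3.38 to 39.6%), against 7.91% of the list. All of these overlaps were at Scd1 and Scd2 (2 of 10 members, where 5.36% of genes had such a Foxp4 peak), and peaks of a shared cluster are not independent. The median gap from a member Foxp4 peak to the nearest H3K27ac peak was 16024 bp, and it was 39053 bp over the whole list.

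The Foxp4 peaks of the members ran in score from 21 to 57 with a median of 32, where the list median was 27. The H3K27ac peaks ran from 22 to 59 with a median of 37, where the list median was 40 and 21.4% of the list scored 59 or more. A set of 6 score values (21, 27, 34, 41, 49 and 57) recurred in the Foxp4 list and held 73.1% of it. At the members, 9 of 13 peaks (69.2%) had such a score, the Scd1 promoter peak among them. The other 4 were the Scd1 peak of 53, the Scd2 peak of 32 and the Fads2 peaks of 47 and 35. In the list, 4.17% of peaks at recurrent scores and 19.2% of the rest overlapped H3K27ac. The members' counts were 1 of 9 and 2 of 4. Annotated LINE, SINE, LTR or DNA repeats held 4 of 13 member Foxp4 peaks (30.8%), where they held 29.5% of the list.

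**Figure D4:**
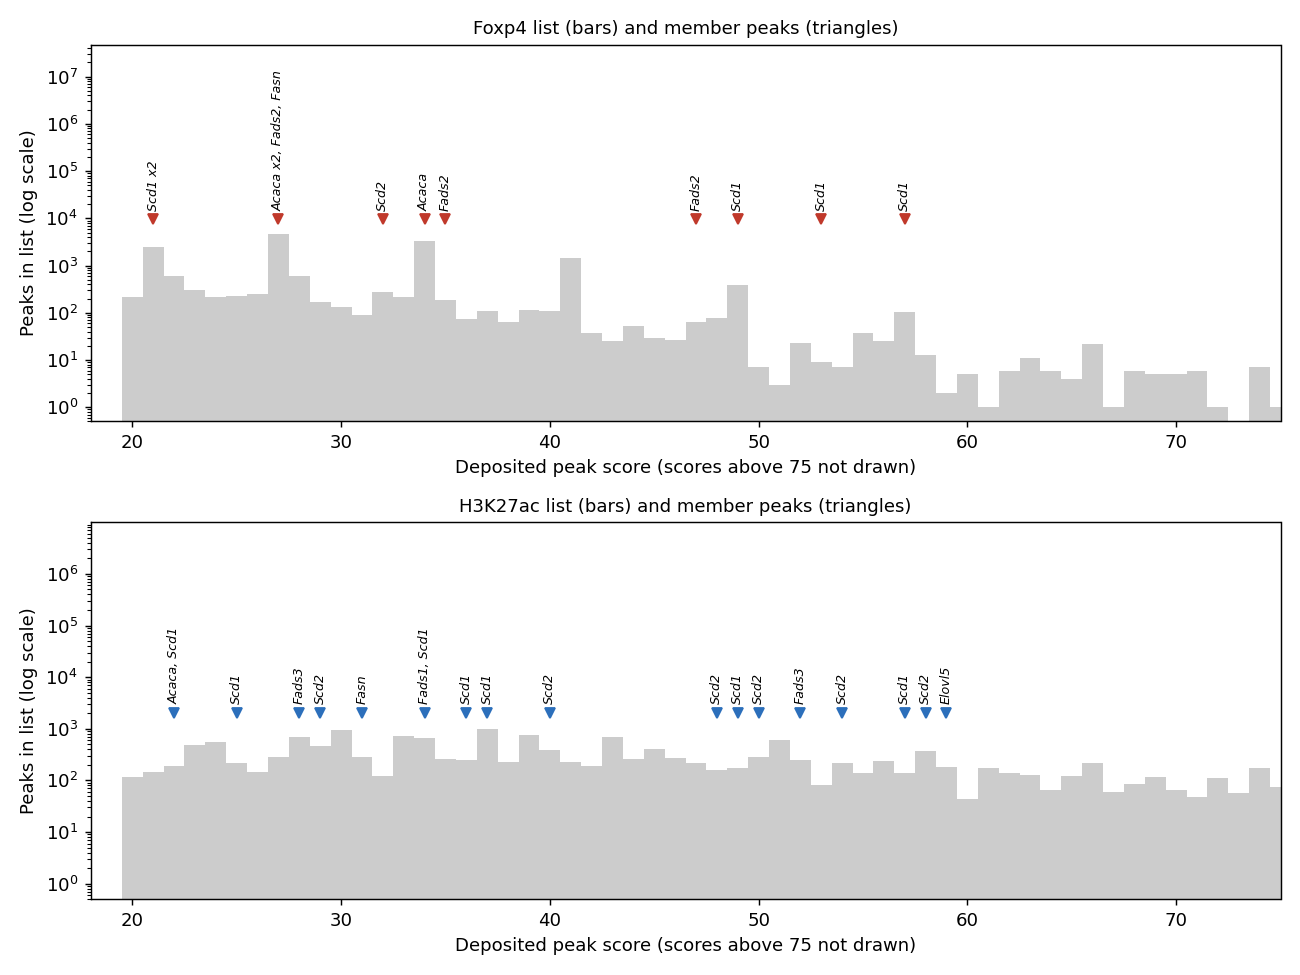
Number of peaks at each deposited score in each list (grey bars, log scale), with triangles at the scores of the member peaks and the gene names above them. The Foxp4 bars rise at recurrent scores, and the 5 Foxp4 peaks that score highest among the members belong to Scd1 (57, 53, 49) and Fads2 (47, 35).

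Other genes of the pathway were read from 4 lists with 51 genes in all, of which 30 had an H3K27ac promoter peak (58.8%) and 8 had a Foxp4 promoter peak (15.7%). These stood beside 26.0% and 6.77% of all genes. In the list of carbon and NADPH supply, H3K27ac marked 6 of 9 starts, with the highest scores at Cs, citrate synthase (132), and Idh1, which makes cytosolic NADPH (74). Foxp4 was found at Cs (41), overlapping H3K27ac by 188 bp, and at Acss2, which activates acetate (27), where H3K27ac had no peak. Of 20 other chain-building, elongation and desaturation genes, 8 had an H3K27ac promoter peak, led by Oxsm of mitochondrial fatty acid synthesis (88) and the elongase Elovl1 (70). Foxp4 promoter peaks stood at the same 2 genes, with scores of 24 and 28, and at Scd4.

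Among 12 regulators 8 had an H3K27ac promoter peak, with the highest scores at Insig1, which retains SREBP in the endoplasmic reticulum (114), and Usf2 (111). The Foxp4 promoter peaks in this list were those of Srebf1, encoding SREBP1 (35), and Mlxipl, encoding ChREBP (40). Only that of Mlxipl overlapped the best H3K27ac promoter peak of its gene, by 243 bp. The Srebf1 peak shared 436 bp with another H3K27ac peak, whose centre lay just outside the window. The deposited distances of the Srebf1 promoter peaks were 76 bp for Foxp4 and 338 bp for H3K27ac, yet this pair shared 0 bp. At 1 start they would overlap unless the H3K27ac peak was very narrow, so the distances most likely refer to different starts of the gene. A gene counted with both promoter peaks therefore need not have them at the same start. Of 10 activation and esterification genes 8 had an H3K27ac promoter peak, led by Gpam, which begins glycerolipid synthesis (102), and Dgat1, which completes triglyceride (91). Gpat3, an acyltransferase of the same step as Gpam, alone had a Foxp4 promoter peak (52), and it did not overlap H3K27ac. The H3K27ac scores named here are the 2 highest of each list, picked from 51 genes in all. All 8 exceeded the highest assigned to a member, 59. Peaks inside Acaca (86) and Elovl6 (74 and 65) that were assigned to other genes did so too.

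**Figure D5:**
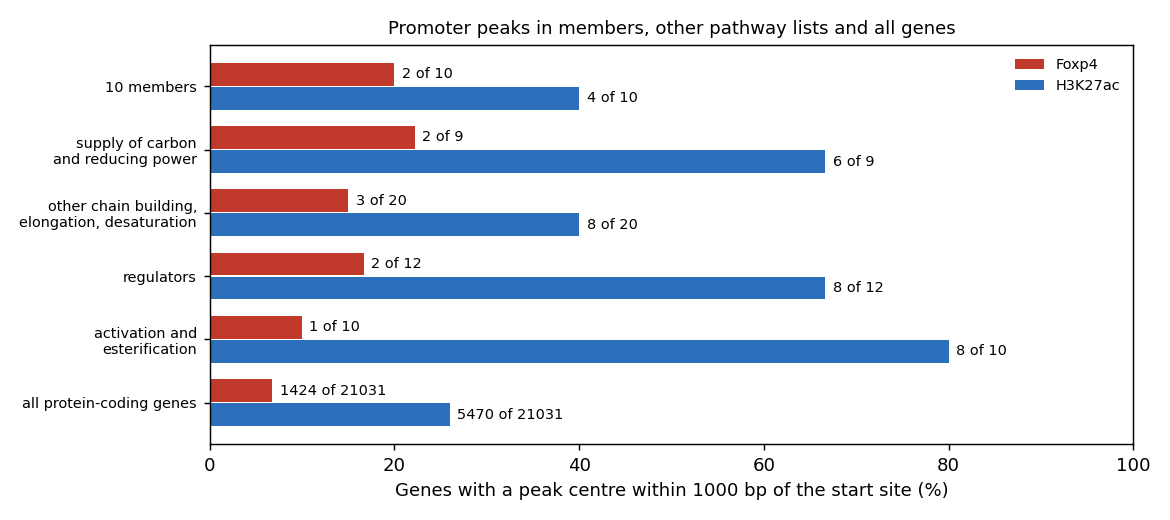
Share of genes with a peak centre within 1000 bp of the start site, in percent, for Foxp4 (red) and H3K27ac (blue) in the 10 members, the 4 other pathway lists and all protein-coding genes, with counts beside the bars. The members' H3K27ac share of 40% equals that of the other chain-building genes and lies under those of the remaining lists (66.7 to 80%).

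Likeness to Scd1 was measured among the 778 other genes with both promoter peaks, as the distance between the list percentiles of the best promoter score in each of the 2 libraries. Tmem216, a gene of the ciliary transition zone, had the same pair of scores as Scd1 (57 and 37). Ties are easily met, as 104 Foxp4 peaks scored 57 and 993 H3K27ac peaks scored 37. The 37 of Scd1 is that of its exon 2 peak, which did not overlap Foxp4. Cops4, a subunit of the COP9 signalosome (49 and 35), and Lypla1, an acyl-protein thioesterase (42 and 35), followed at 4.14 and 5.60 percentile points. With 2 libraries this ranks the deposited score only.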

How the data were processed

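Per the labels' protocols, chromatin of sonicated nuclei was precipitated with a Foxp4 antibody. This text stands for all 3 libraries, and the antibody for H3K27ac is not given in the sources used here. The submitters' processing notes name mm10, deepTools 3.3.0, MACS2, Bowtie2, SAMtools and Picard, with no settings. Per the file headers, each deposited list is a narrowPeak file annotated by HOMER annotatePeaks.pl on mm10. The deposited score of a peak is the authors' value, and its formula is not stated. The deposited distance to the TSS, in bp (negative upstream), was used as given. The input library and the threshold of the peak call were not used here.

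The autosomes and sex chromosomes were kept, which left out 1 Foxp4 row. Overlap meant at least 1 shared bp. The background was the 21031 protein-coding genes of RefSeq GRCm38.p6 with a curated transcript, matched by Entrez identifier, and all 51 pathway genes matched. Recurrent scores were those held by at least 100 Foxp4 peaks and more than 3 times as many as at either neighbouring value. Shares carry exact (Clopper-Pearson) 95% intervals, which cover counting error only, and no test was run.

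All members are named. From the other lists the text names each gene with a Foxp4 promoter peak and the 2 highest H3K27ac promoter scores per list. The likeness to Scd1 followed a written rule. Neighbouring genes are named where a peak inside or nearest to a member was assigned to them. The members and lists were chosen with earlier results of these data known. Alternatives changed the promoter window, the overlap rule, the assignment and the peaks kept. The overlap and recurrent-score code was tested on simulated data. Scripts ran on scipy 1.17.1, pandas 2.3.3 and numpy 2.4.6, and figures were drawn in matplotlib 3.10.9.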

Additional observations from a re-analysis of the deposited data

How the results depend on the processing

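The promoter counts depended on the window. With 500 bp, members with a Foxp4, an H3K27ac or both promoter peaks numbered 0, 1 and 0 (4.57%, 19.3% and 2.02% of all genes). With 1000 bp they numbered 2, 4 and 1 (6.77%, 26.0% and 3.70%), and with 3000 bp they stayed at 2, 4 and 1 (10.4%, 28.2% and 5.60%). All these counts take assigned peaks only. The H3K27ac peak centred 1935 bp from the Elovl6 TSS went to Gm35986, so it was left out at 3000 bp, where counting by position would add Elovl6. The authors' promoter class gave 1 for Foxp4 (4.47% of all genes) and 2 for H3K27ac (12.6%). The higher-scoring 50% of each list holds fewer peaks for every gene: there 2 members had an H3K27ac promoter peak (18.5% of all genes), 0 had both (2.06%) and 4 had any H3K27ac peak (25.3%). Without the recurrent Foxp4 scores, 1 member had a Foxp4 promoter peak (3.87% of all genes), 0 had both (2.39%) and 3 had any Foxp4 peak (14.5%). Of the 19 H3K27ac peaks, 1 was at least 50% covered by Foxp4 (2.52% of the list) and 6 lay within 1000 bp of it (13.7%). Of 13 member Foxp4 peaks, 3 overlapped H3K27ac (8.21% of the list), 2 were at least 50% covered by it (5.79%) and 4 lay within 1000 bp of it (12.9%). The centre of 2 lay inside an H3K27ac peak, a rule for which no list share was computed. By RefSeq span, an alternative chosen after seeing the data, 3 members had a Foxp4 peak. The median rank of the 2 member Foxp4 promoter peaks was 7.10% among promoter peaks alone, against 3.46% of the whole list. For the 5 member H3K27ac promoter peaks it was 77.6% among promoter peaks, against 63.0% of the list. A rank here is the percentage of peaks that scored at least as high. No paired analysis was possible because each target has a single library. Depth is unknown, so an absent peak sets no limit.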
